A study of Oryza sativa with 36 samples.

Results

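The roots of PA64s rice seedlings grown with fertiliser were compared with PA64s roots grown without it, on 6 of the 36 arrays of the study, 3 per nutrient state. The arrays were chosen by their titles, which give cultivar, tissue, nutrient state and replicate. PA64s is known, though the labels do not say so, as a male-sterile line and one parent of the hybrid LYP9, the other parent being 9311. The study covered leaf and root of these 3 cultivars in both nutrient states, with an Affymetrix rice array as the readout, and its stated aim concerned expression differences at the start of heterosis.

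Both PA64s root groups share the cultivar and the early growth: per the labels, seedlings had 5 days in a soil mix with nutrients, and 15 seedlings of each variety were later moved to each of 12 barrels of poor soil. The nutrient-sufficient group, also called heterotic in the labels, comes from the 6 barrels that received 10 g urea and 10 g compound fertiliser when the plants were 14 days old. The nutrient-deficient group comes from the barrels that received none. The labels give neither the time of sampling nor the barrel or the number of plants behind an array. The p-values thus rest on the spread between arrays of a group, which may be technical. This spread was pooled over the 18 root arrays of all cultivars in the study, not taken from the PA64s arrays alone. Urea and the compound fertiliser came together, so their effects cannot be told apart.

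Of the 57194 probe sets that are no controls, the 34316 in the upper 60% by mean level over the 18 root arrays were tested, those above 5.703 log2 intensity units. Levels are log2 intensities. A change is the sufficient mean minus the deficient mean on that scale, and a change of 1 is a doubling. Each change is given with its standard error (SE). The SE uses the same pooled spread over the 18 root arrays, so it can be wider or narrower than the PA64s arrays of a gene imply. A probe set was called when its limma p, after Benjamini-Hochberg adjustment over all 34316, was under 0.05, and every adjusted p is of this kind. Probes may also bind related genes, and in whole roots fewer cells of a type and less RNA per cell cannot be told apart.

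The tissue label was checked with marker genes. The 7 root markers averaged 10.24 to 11.02 log2 units over the sufficient and 10.10 to 10.41 over the deficient root arrays, against 5.95 to 6.42 in PA64s leaves. For the 7 green-tissue markers the averages were 5.37 to 5.59 in sufficient and 5.37 to 5.97 in deficient roots, against 11.59 to 12.22 in leaves. The markers RBCS1 and CASP1 separated the tissues little, at 2.99 and 2.94 in sufficient and deficient roots against 4.17 and 3.96 in leaves for RBCS1, and at 8.66 in both root groups against 7.71 and 7.68 for CASP1. The root markers NRT2.3 and YSL15 are also members of lists described below. Array medians were 71.75, 65.97 and 66.43 intensity units for sufficient replicates 1, 2 and 3, and 69.5, 67.96 and 68.9 for the deficient ones. One pair within a group stood apart: sufficient replicates 1 and 3 correlated at 0.9735 across probe sets, below the 0.9749 to 0.9769 between sufficient replicate 1 and the 3 deficient arrays. The other pairs within a group correlated at 0.98 to 0.9868.

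Plant roots take up nitrogen as nitrate through NRT transporters, as ammonium through AMT transporters and as urea through DUR3. Ammonium is built into glutamine by glutamine synthetase, and nitrogen held in purines is released again through the ureides allantoin and allantoate. Iron uptake in grasses runs through mugineic acid chelators, which are made from nicotianamine, secreted, and taken back as iron complexes by YSL transporters.

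Fertilised PA64s roots had more RNA of both non-symbiotic haemoglobins, of the kinase CIPK14, of the ammonium transporter AMT1;2 and of genes that make and take up iron chelators. They had less RNA of allantoinase, of the urea transporter DUR3, of 3 other ammonium transporters, and of 3 beta-glucosidase and 3 phenylpropanoid genes. Several of these calls, in both directions, ended when a single array was left out. Some of the phenylpropanoid genes had probe sets that disagreed. In all, 1143 probe sets were called, which is 3.33% of those tested. Of these 597 were higher (1.74% of those tested) and 546 lower (1.59%). Over all tested probe sets 5202 had an unadjusted p under 0.05, against 1716 expected if nothing differed.

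The called changes were mostly moderate in size. Their median absolute log2 change was 1.04, the smallest was 0.38, and the extremes were 6.15 and -5.12. More than 1 log2 unit separated the states for 319 of the higher and 293 of the lower calls, more than 2 units for 78 and 55, and more than 3 units for 20 and 11. The median change over all tested probe sets was -0.00906, and -0.009838 and 0.007539 after quantile normalization and median centring. Calls were more frequent where the signal was higher: 1.49%, 2.87%, 4.14% and 4.83% of the probe sets were called in 4 groups of equal size from lowest to highest mean level.

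The sufficient and deficient arrays did not overlap for 1141 of the calls, whereas 19.0% of all tested probe sets showed such a separation (9.74% with the sufficient arrays higher and 9.3% with them lower). The array closest to the other group was often the same one. Among the 597 higher calls the lowest sufficient array was replicate 3 in 268, replicate 1 in 216 and replicate 2 in 113. Among the 546 lower calls the highest sufficient array was replicate 1 in 321, replicate 2 in 154 and replicate 3 in 71.

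Fewer probe sets passed the threshold when a single array was left out. Such a fit rests on fewer arrays, which tends to widen the SE, so a call can end with its change little altered. Without sufficient replicate 2, 552 were called, and 744, 604 and 672 without deficient replicates 1, 2 and 3. These fits kept 540, 649, 580 and 615 of the 1143 calls. Without sufficient replicate 3 the count was 785, of which 521 were higher and 264 lower, so that 66.4% were higher, against 52.2% with all 6 arrays. Without sufficient replicate 1 the count was 1066, of which 460 were higher and 606 lower (43.2% higher), and after quantile normalization 46.8% were higher (535 higher and 608 lower). Of the 82 named probe sets, 25 kept their call in every alternative fit that tested them and 57 lost it in at least one, 33 of them when the 6 PA64s root arrays were fitted alone. None changed direction.

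**Figure D1:**
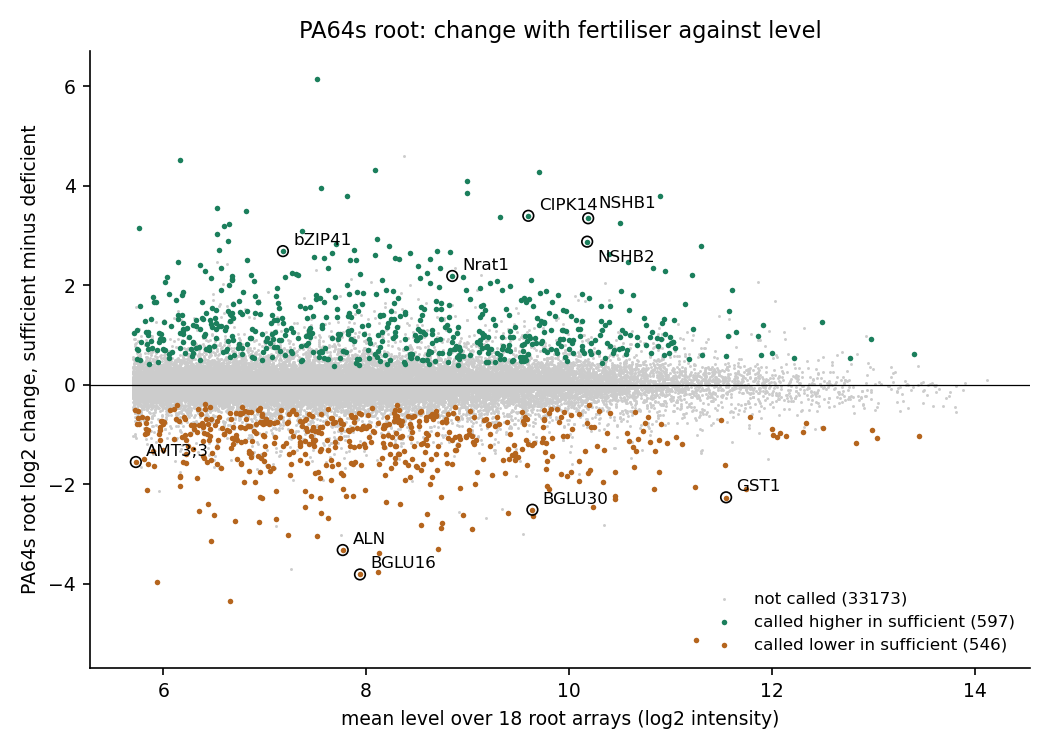
Log2 change in PA64s roots (sufficient minus deficient, vertical) against mean log2 intensity over the 18 root arrays (horizontal), 1 point per tested probe set, with 597 called higher in green, 546 called lower in brown and 10 named genes circled. The calls lie on both sides of 0 over most of the range of levels.

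Of the 1143 called probe sets, 818 carry a single gene in the array annotation, 764 genes in all, and 135 of these genes are named beyond their locus number. The other 325 carry no single gene. For 137 called genes that had several tested probe sets, 118 had all of them on one side of 0, 36 had all of them called, and 0 had calls in both directions. The highest fitted change belonged to LOC4328109, at 10.94, 11.23 and 11.15 in sufficient arrays against 3.97, 4.63 and 6.26 in deficient arrays (6.15 ± 0.69 SE, adjusted p = 0.000138 with limma). The lowest belonged to LOC4351693, at 8.77, 8.47 and 6.86 in sufficient arrays against 13.13, 13.15 and 13.19 in deficient arrays (-5.12 ± 0.68, adjusted p = 0.000654). In both genes the groups lay far apart, and the wider spread was on the side of the lower level. The deficient mean of LOC4328109 was 4.95, below the filter level, so the size of its change is uncertain. The sources used here give no description of either.

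Of all 15338 genes tested, each represented by its probe set of highest signal, 4.73% were called. That share belongs beside every list count below. Among the 33 measured genes of nitrogen uptake, assimilation and recycling, 6 were called higher and 7 lower, with a median change of -0.01. Calls thus fell on both sides within the pathway. Over the 4 gene lists that make up this set, 1 higher and 3 lower calls were in ammonium transport (8 genes tested), 3 and 1 in ammonium assimilation (9), 2 and 2 in ureide and urea recycling (8), and 0 and 1 in nitrate uptake, reduction and signalling (8).

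Allantoinase, encoded by ALN (LOC4337428), opens the ring of allantoin in purine breakdown. Its level was 6.22, 5.99 and 6.20 log2 units in sufficient arrays, against 8.99, 9.62 and 9.75 in deficient arrays. The sufficient arrays lay within 0.13 of each other in SD, and the groups did not come near one another. ALN thus fell by 3.32 ± 0.24 log2 units (adjusted p = 2.75e-06 with limma), a 9.98-fold difference.

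The enzymes that act later on the same nitrogen moved the other way. UGLYAH (LOC4343286), the ureidoglycine aminohydrolase, had 11.16, 11.04 and 11.18 in sufficient arrays against 10.50, 10.70 and 10.34 in deficient arrays, a rise of 0.61 ± 0.12 (adjusted p = 0.00973). UAH (LOC4352706), the ureidoglycolate amidohydrolase, had 11.63, 11.37 and 11.45 against 10.92, 10.82 and 10.15, a rise of 0.85 ± 0.21 (adjusted p = 0.0343). Both groups of arrays were separate for each enzyme, but the UGLYAH call ended without deficient replicate 3 (0.53), and the UAH call without any single array except deficient replicate 1 (0.61 to 0.95). AAH (LOC4341777), the allantoate amidohydrolase that acts between them and ALN, had a change of -0.10 ± 0.27 (adjusted p = 0.917). XDH (LOC4333171), the xanthine dehydrogenase at the head of purine breakdown, had a change of -0.74 ± 0.21 (adjusted p = 0.0722).

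DUR3 (LOC4349520), the high-affinity urea transporter, was at 6.27, 5.72 and 5.16 in sufficient arrays against 6.63, 7.71 and 8.67 in deficient arrays. The deficient arrays differed widely, and the lowest of them lay close to the highest sufficient array. DUR3 fell by 1.95 ± 0.40 log2 units (adjusted p = 0.0121). Without sufficient replicate 3 or deficient replicate 3 the changes were -1.67 and -1.45 and the call ended. The urease accessory genes UREF (LOC4328424) and UREG (LOC4339627) had changes of 0.15 ± 0.15 and -0.16 ± 0.16, and neither was called.

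The ammonium transporters split by member. AMT1;2 (LOC4330008), a high-affinity transporter known in rice as a root gene that ammonium induces, had 10.55, 9.43 and 8.53 in sufficient arrays against 7.11, 7.33 and 8.15 in deficient arrays. Sufficient replicate 3 was only slightly above deficient replicate 3. AMT1;2 rose by 1.98 ± 0.40 (adjusted p = 0.0115), and without deficient replicate 1 or 2 the changes were 1.77 and 1.87 and the call ended.

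AMT3;2 (LOC4334717) had 7.68, 8.26 and 7.73 in sufficient arrays against 9.53, 9.12 and 9.79 in deficient arrays, a fall of -1.59 ± 0.27 (adjusted p = 0.00397). AMT3;3 (LOC4329628) had 5.00, 4.87 and 4.94 in sufficient arrays against 6.37, 6.35 and 6.74 in deficient arrays, a fall of -1.55 ± 0.16 (adjusted p = 8.52e-05). Its sufficient mean lies below the filter level, where the size of a difference is uncertain. AMT2;1 (LOC4339064) had 8.03, 8.18 and 7.59 against 8.63, 8.49 and 9.21, a fall of -0.84 ± 0.20 (adjusted p = 0.0287) whose call ended without sufficient replicate 3 (-0.67) or deficient replicate 3 (-0.63). The other 4 tested members, AMT1;1 (LOC4336365), AMT2;2, AMT2;3 and AMT3;1, had changes from -0.36 to 0.44 and were not called. For AMT1;1, sufficient replicate 3 stood low at 9.86, against 11.34 and 11.21 in the other sufficient arrays.

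Glutamine synthetase showed opposite calls for its cytosolic forms GLN1;2 and GLN1;1. Another form, GLN1;3 (LOC4333896), was not called (0.03 ± 0.15, adjusted p = 0.96 with limma). GLN1;2 (LOC4332108) had 13.77, 13.63 and 12.89 in sufficient arrays against 12.21, 12.59 and 12.69 in deficient arrays, a rise of 0.93 ± 0.23 (adjusted p = 0.0394). GLN1;1 (LOC4330649) had 12.31, 11.76 and 11.25 in sufficient arrays against 13.01, 12.60 and 12.57 in deficient arrays, a fall of -0.95 ± 0.23 (adjusted p = 0.0299). The groups did not overlap for either gene, but the margins were narrow. The GLN1;2 call ended without any single array except sufficient replicate 3 (0.76 to 1.03) and after quantile normalization (0.99), and the GLN1;1 call without any single array except sufficient replicate 1 (-1.03 to -0.69).

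GLN2 (LOC4337272), the plastid glutamine synthetase, rose by 0.70 ± 0.16 (adjusted p = 0.023), with 8.33, 8.37 and 7.99 in sufficient arrays against 7.74, 7.63 and 7.22 in deficient arrays. GDH1 (LOC4334405), a glutamate dehydrogenase, rose by 0.68 ± 0.16 (adjusted p = 0.0326), with 10.37, 10.81 and 10.96 against 10.12, 10.21 and 9.79. The GLN2 call ended without sufficient replicate 1 or 2 or deficient replicate 2 or 3 (0.55 to 0.75). The GDH1 call ended without sufficient replicate 2 or 3 or deficient replicate 1 or 3 (0.55 to 0.71), after quantile normalization (0.61) and after median centring (0.69). GDH2 (LOC4336554) had a change of 1.13 ± 0.36 that did not pass (adjusted p = 0.112), while its other, lower-signal probe set was called (1.3 ± 0.34, adjusted p = 0.0443). Fd-GOGAT (LOC4344164), the ferredoxin-dependent glutamate synthase, had -0.18 ± 0.20.

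In the nitrate list the called gene was NLP1 (LOC4331508), a NIN-like transcription factor of a family that acts in nitrate signalling. It had 9.01, 8.69 and 8.51 in sufficient arrays against 9.20, 9.73 and 10.03 in deficient arrays, a fall of -0.92 ± 0.20 (adjusted p = 0.0157), and the call ended without sufficient replicate 2 or 3 or deficient replicate 2 or 3 (-0.89 to -0.73). NIGT1 (LOC4329184), a repressor known to be induced by nitrate, had 8.85, 9.18 and 8.11 in sufficient arrays against 6.76, 6.24 and 7.77 in deficient arrays (1.79 ± 0.53, adjusted p = 0.0855). The transporter gene NRT2.3 (LOC4324249) had 9.68, 9.05 and 8.02 against 9.43, 10.39 and 10.86 (-1.31 ± 0.41, adjusted p = 0.102), and these groups overlap. The nitrate reductase gene NIA1 (LOC4345795) had a change of 0.70 ± 0.48 (adjusted p = 0.556), while its other probe set had -0.40 and was not called. With the 6 PA64s root arrays fitted alone, every nitrogen call named here ended except those of ALN, AMT3;2 and AMT3;3.

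Non-symbiotic haemoglobins are oxygen-binding proteins known to remove nitric oxide in plant cells, and rice haemoglobin genes are known to respond to nitrate. Both measured members rose. NSHB1 (LOC4332166) had 12.77, 12.37 and 11.35 in sufficient arrays against 8.63, 8.65 and 9.16 in deficient arrays (3.35 ± 0.38, adjusted p = 0.000178), and its other probe sets changed by 3.87 and 4.11. NSHB2 (LOC4332123) had 12.71, 12.00 and 11.11 against 8.89, 8.76 and 9.55 (2.88 ± 0.39, adjusted p = 0.000774). In both genes sufficient replicate 3 was the lowest of its group and deficient replicate 3 the highest of its group, with a gap left between them. The members are similar in sequence, and whether a probe set reads both was not tested.

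**Figure D2:**
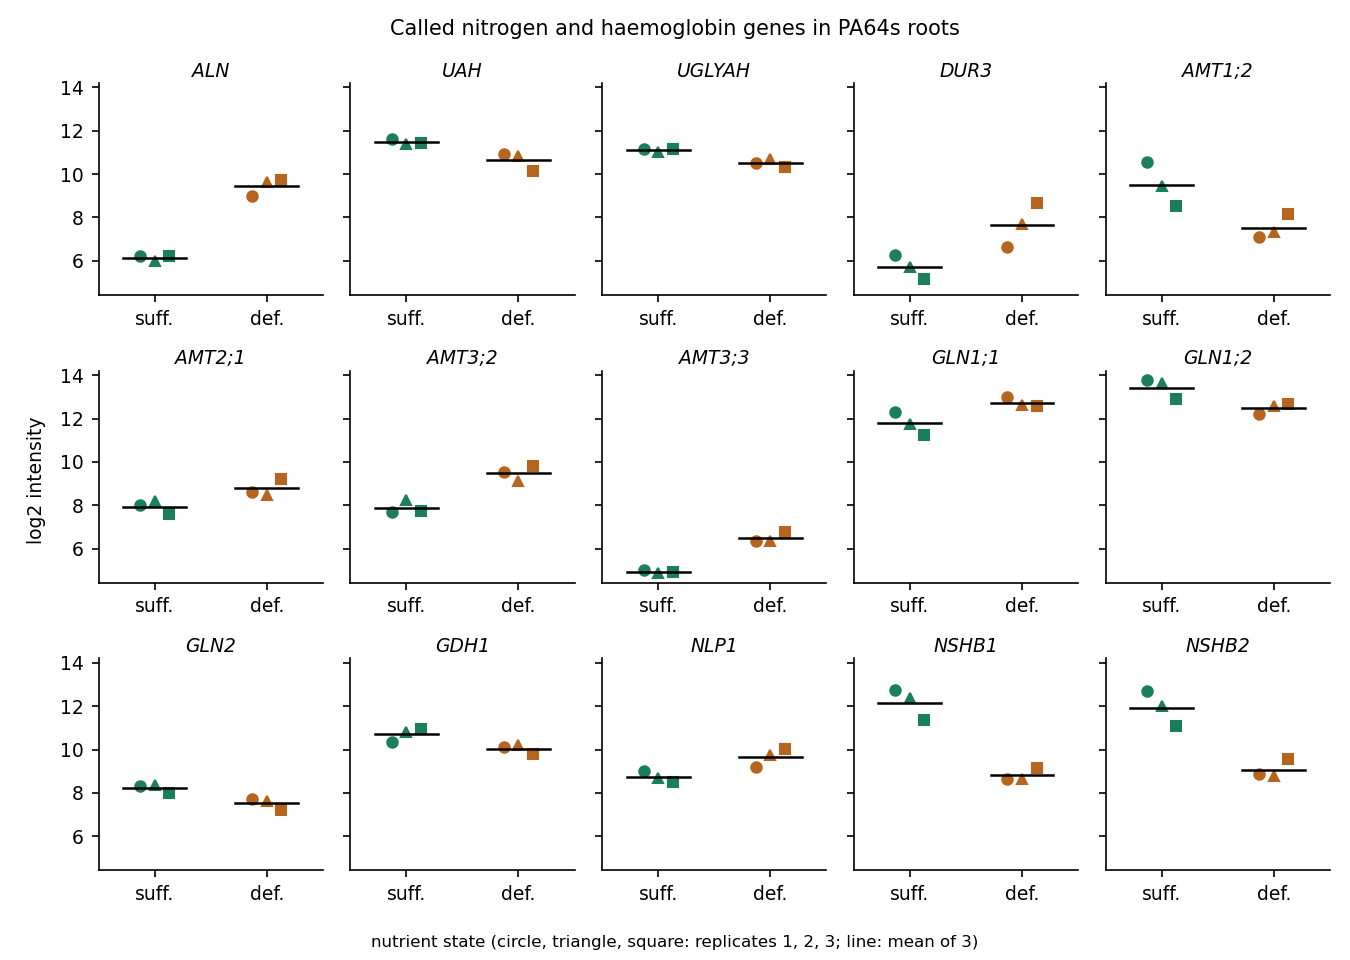
Log2 intensity in each PA64s root array of the 13 called nitrogen genes and the 2 haemoglobin genes, with sufficient arrays in green on the left and deficient arrays in brown on the right of each panel; symbols mark replicates 1 to 3 and the line is the mean of 3. ALN, AMT3;3 and the haemoglobins show wide gaps, whereas GLN1;2, GDH1 and DUR3 come close between the states.

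With 4.73% of all genes called, 5 of 35 tested genes of iron and zinc uptake and chelation were called higher and 0 lower. Their median change was 0.10, with 20 changes above 0 and 15 below. Of the called genes, 4 act in the chelator route and 1 encodes another metal transporter. NAS1 and NAS2 encode nicotianamine synthases, NAAT1 the aminotransferase that takes nicotianamine towards the mugineic acid chelators, YSL15 the transporter that takes up the iron chelate, and Nramp1 the other metal transporter. NAAT1 and Nramp1 lie outside the rule for named genes and were chosen after their values were seen.

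YSL15 (LOC9268232) had 10.69, 11.35 and 10.53 in sufficient arrays against 9.03, 8.62 and 9.19 in deficient arrays, a rise of 1.91 ± 0.28 (adjusted p = 0.00138). NAS2 (LOC4332607) had 12.13, 12.55 and 12.23 against 10.77, 8.99 and 10.09, a rise of 2.35 ± 0.49 (adjusted p = 0.0146). NAS1 (LOC4332608) had 12.28, 12.75 and 12.07 against 10.77, 9.16 and 10.32, a rise of 2.28 ± 0.52 (adjusted p = 0.0229). In all 3 genes deficient replicate 2 was the lowest array and sufficient replicate 2 the highest. NAS1 and NAS2 are near-identical neighbours in rice, so their probe sets may read both genes.

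NAAT1 (LOC9267778) showed the same low array, with 10.79, 10.98 and 10.27 in sufficient arrays against 9.57, 8.08 and 9.20 in deficient arrays (1.73 ± 0.35, adjusted p = 0.012). Nramp1 (LOC4342862) had 8.53, 8.34 and 8.46 against 7.34, 7.02 and 7.66 (1.10 ± 0.22, adjusted p = 0.0093). Without deficient replicate 2 the changes were 1.87 for NAS2, 1.82 for NAS1, 1.30 for NAAT1 and 0.94 for Nramp1, and all 4 calls ended. Without sufficient replicate 2 the calls of NAS2 (2.23), NAS1 (2.09) and NAAT1 (1.58) ended, and without deficient replicate 3 that of NAS1 (2.40). YSL15 kept its call in every alternative fit.

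Other parts of the iron list were not called. The third synthase gene, NAS3 (LOC4344361), had 11.55, 10.80 and 9.62 in sufficient arrays against 8.95, 9.42 and 9.57 in deficient arrays (1.34 ± 0.39, adjusted p = 0.0777). YSL16 (LOC4336546), another chelate transporter, had a change of 1.00 ± 0.27 (adjusted p = 0.0534). The ferrous iron transporter genes IRT1 (LOC4333669) and IRT2 (LOC4333667) had changes of -0.60 ± 0.29 and -1.06 ± 0.38 (adjusted p = 0.349 and 0.169), and TOM1 (LOC4330406), which encodes the transporter that secretes the chelator, 0.18 ± 0.17 (adjusted p = 0.714).

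**Figure D3:**
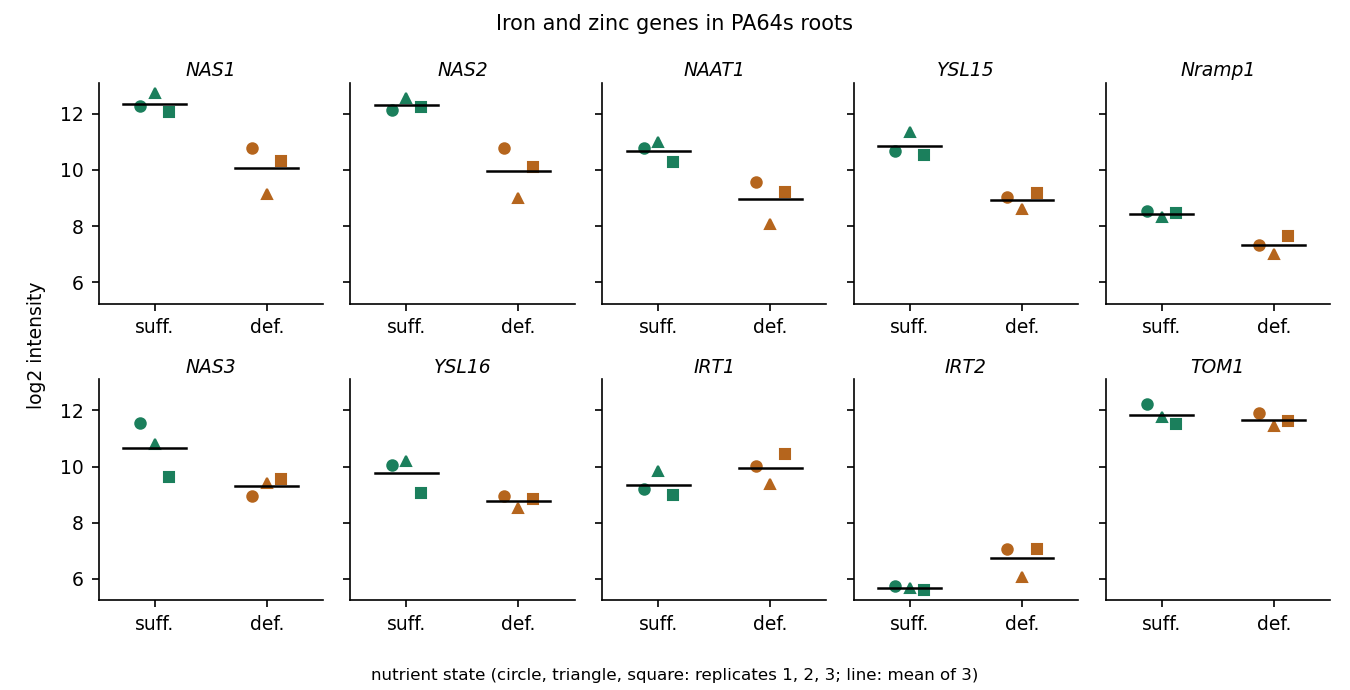
Log2 intensity in each PA64s root array of the 5 called iron genes (upper row) and 5 uncalled ones (lower row), sufficient arrays in green on the left and deficient arrays in brown on the right, symbols for replicates 1 to 3 and a line at the mean of 3. Deficient replicate 2, the brown triangle, is the lowest array for NAS1, NAS2, NAAT1, YSL15 and Nramp1.

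With 4.73% of all genes called, the short lists of this paragraph would also be given few calls or none. Of the 19 tested genes of phosphate transport and signalling, 0 were called in either direction, with a median change of 0.14. Their largest changes were 1.38 ± 0.52 for the phosphate transporter gene Pht1;2 (LOC4331637), 1.17 ± 0.50 for Pht1;4 (LOC4335115) and -1.37 ± 0.45 for SPX2 (LOC4328654), of a family that senses phosphate state (adjusted p = 0.189, 0.272 and 0.12). Pht1;2 had 12.79, 12.81 and 11.47 in sufficient arrays against 10.17, 10.27 and 12.50 in deficient arrays, so that replicate 3 stood apart from the others in both groups. None of the 23 aquaporins was called, and of 20 potassium and sodium transporters 1 was higher and 1 lower. These were the potassium channel gene KCO1 (LOC4334137, 0.49 ± 0.12, adjusted p = 0.0413) and the potassium transporter gene HAK13 (LOC4341805, -0.72 ± 0.15, adjusted p = 0.0134). The KCO1 call ended without any single array except sufficient replicate 3 (0.41 to 0.53) and with no filter, and the HAK13 call without deficient replicate 2 or 3 (-0.71 and -0.60).

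Nrat1 (LOC4328200), a root transporter of the Nramp family known to carry aluminium in rice, was in no metal list but among the largest rises. It had 10.23, 9.91 and 10.03 in sufficient arrays against 7.68, 7.76 and 8.17 in deficient arrays (2.19 ± 0.35, adjusted p = 0.0023). The groups were compact and more than 1 log2 unit apart, and the call held in every alternative fit.

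CIPK proteins are kinases that act with calcium-binding CBL partners, several of them on ion transporters. Of 29 CBL and CIPK genes, 2 rose and 1 fell, with a median change of 0.00, where 4.73% of all genes were called. CIPK14 (LOC4351307) had 11.57, 11.71 and 11.58 in sufficient arrays against 8.58, 8.0 and 8.07 in deficient arrays, a rise of 3.40 ± 0.35 (adjusted p = 7.65e-05). No other named gene rose more by the probe set that represents it. Rice has a near-identical copy, CIPK15, which the probes may also bind.

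CIPK29 (LOC4344285) went the other way, with 7.97, 7.15 and 7.0 in sufficient arrays against 8.90, 8.82 and 9.12 in deficient arrays (-1.57 ± 0.25, adjusted p = 0.0022). CIPK10 (LOC4332786) had 11.51, 11.57 and 11.61 against 10.09, 10.02 and 9.84 (1.58 ± 0.35, adjusted p = 0.0212). Of the 3 other CIPK10 probe sets, 1 was called (1.10) and 2 were not (1.53 and 1.55), and its call ended without any single array except sufficient replicate 1 (1.51 to 1.63). Among 42 calcium sensors and calcium-dependent kinases 1 was higher, CPK7 (LOC4331490, 0.68 ± 0.15, adjusted p = 0.0164), and 1 lower, CML8 (LOC4348517, -0.84 ± 0.19, adjusted p = 0.0222). At the 4.73% called over all genes, a list of this size would also hold few calls. The CPK7 call ended without sufficient replicate 1 or deficient replicate 2 or 3 (0.60 to 0.68) and with all 36 arrays, and the CML8 call without any single array except sufficient replicate 1 (-0.87 to -0.68).

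The few called genes of the sugar-related lists were all higher, where 4.73% of all genes were called. Trehalose phosphate phosphatases remove the signalling sugar trehalose 6-phosphate, and 2 of 7 trehalose genes rose and 0 fell, with a list median of 0.59. TPP4 (LOC4330753) had 8.41, 8.29 and 8.64 in sufficient arrays against 6.97, 7.09 and 7.10 in deficient arrays (1.40 ± 0.21, adjusted p = 0.00178). TPP1 (LOC4330221) had 10.02, 9.37 and 9.36 against 7.91, 8.25 and 8.63 (1.33 ± 0.20, adjusted p = 0.00176). Neither pair of groups overlapped, and both calls held when any single array was left out.

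Among 35 genes of starch and sucrose metabolism, 18 had changes above 0 and 17 below, with a median of 0.02. Calls numbered 3 higher and 0 lower. These were CIN2 (LOC4335790), a cell wall invertase gene (1.2 ± 0.28, adjusted p = 0.0267), SPS3F (LOC4341642), a sucrose phosphate synthase gene (0.92 ± 0.22, adjusted p = 0.0336), and SUS2 (LOC4340386), a sucrose synthase gene (0.54 ± 0.14, adjusted p = 0.0496). The SPS3F and SUS2 calls ended without any single array (0.81 to 1.04 and 0.46 to 0.61), the SUS2 call also after median centring (0.55), and the CIN2 call without sufficient replicate 2 or 3 or deficient replicate 2 or 3 (1.00 to 1.28).

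Over the 7 hormone lists 8 of 158 genes were called, or 5.06%, against 4.73% of all 15338 genes tested when each is represented by its probe set of highest signal. D14 (LOC4331983), the strigolactone receptor, which in rice restrains tillering, had 11.96, 11.90 and 11.77 in sufficient arrays against 10.59, 10.41 and 10.74 in deficient arrays (1.30 ± 0.25, adjusted p = 0.0089). The other 3 tested strigolactone genes, D3, CCD7 and CCD8A, had changes of 0.37, -0.10 and 0.02 and were not called. ETR2 (LOC4335058), an ethylene receptor, had 9.63, 9.71 and 9.77 in sufficient arrays against 8.68, 8.95 and 8.79 in deficient arrays (0.90 ± 0.14, adjusted p = 0.00177) and was the called gene among 9 of ethylene. Both receptor calls held in every alternative fit, and neither pair of groups overlapped.

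With 4.73% of all genes called, 0 of 26 abscisic acid and dehydration genes rose and 2 fell. These were SAPK1 (LOC4333017), a stress-activated kinase gene (-0.86 ± 0.16, adjusted p = 0.00712), and rab25 (LOC4326935, -0.98 ± 0.21, adjusted p = 0.017), whose sufficient mean of 5.28 lies below the filter level. The dehydrin gene RAB21 (LOC4350454) had 5.04, 4.96 and 4.75 in sufficient arrays against 6.36, 5.61 and 7.72 in deficient arrays and was not called (adjusted p = 0.243). The rab25 call ended without sufficient replicate 3 or deficient replicate 2 or 3 (-0.96 to -0.93), and the SAPK1 call when the 6 PA64s root arrays were fitted alone (adjusted p = 0.0622).

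Each of the other hormone lists held at most 1 call per direction. In cytokinin (27 genes) LOGL1 (LOC4327684), of the family that activates cytokinins, rose by 0.84 ± 0.19 (adjusted p = 0.0263). In auxin (55 genes) GH3.6 (LOC4337780), of a family that conjugates hormones to amino acids, rose by 0.54 ± 0.11 (adjusted p = 0.0111), and the auxin response factor gene ARF3 (LOC4327014) fell by 0.50 ± 0.13 log2 units (adjusted p = 0.0476). In jasmonate (27 genes) the lipoxygenase gene LOX3 (LOC4333818) rose by 1.05 ± 0.22 (adjusted p = 0.0157), and none of the 10 gibberellin genes was called. The calls ended for LOGL1 without sufficient replicate 1 or 2 or deficient replicate 2 or 3 (0.68 to 0.82), for GH3.6 without deficient replicate 2 (0.48), for ARF3 without any single array (-0.57 to -0.42), and for LOX3 without sufficient replicate 2 or 3 or deficient replicate 1 or 3 (1.00 to 1.02).

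Beta-glucosidases release sugar-bound compounds. Of 18 beta-glucosidase genes 0 rose and 3 fell, with a median of -0.21, where 4.73% of all genes were called. BGLU16 (LOC4336389) had 6.02, 6.15 and 5.25 in sufficient arrays against 9.58, 9.42 and 9.85 in deficient arrays (-3.81 ± 0.49, adjusted p = 0.000496). Its other probe set had -4.34, with a sufficient mean of 4.21 that lies below the filter level. BGLU30 (LOC4347441) had 8.49, 7.87 and 7.09 against 10.43, 9.90 and 10.65 (-2.51 ± 0.43, adjusted p = 0.00382), and its other probe set had -2.58. For both genes the lowest deficient array stood more than 1 log2 unit above the highest sufficient array. BGLU9 (LOC9269478) fell by 0.75 ± 0.19 log2 units (adjusted p = 0.0455), a call that ended without any single array (-0.86 to -0.59), after quantile normalization (-0.76) and after median centring (-0.73).

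Among 26 genes of lignin and phenylpropanoid metabolism, 0 rose and 3 fell, with a median of -0.25, where 4.73% of all genes were called. LAC10 (LOC4332400), a laccase gene of the family that couples lignin units, had 8.89, 8.66 and 8.64 in sufficient arrays against 10.06, 10.80 and 10.36 in deficient arrays (-1.68 ± 0.32, adjusted p = 0.00859). ROMT-17 (LOC4345935), an O-methyltransferase gene, had 9.09, 8.74 and 7.52 against 11.15, 10.42 and 11.14 (-2.45 ± 0.51, adjusted p = 0.014). Its 3 other probe sets had -3.38, -2.63 and 0.16, so they disagree. The chalcone synthase gene CHS (LOC4350636), at the entry to flavonoids, had 7.63, 7.15 and 6.70 against 8.97, 8.31 and 8.37 (-1.39 ± 0.34, adjusted p = 0.0363), while its 3 other probe sets had -0.12, 0.00 and 0.07 and were not called. LAC10 kept its call in every alternative fit. The ROMT-17 call ended without sufficient replicate 3 or deficient replicate 1 or 3 (-2.34 to -1.99), and the CHS call without any single array except sufficient replicate 1 (-1.51 to -1.16).

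DXPS (LOC4342614), which encodes the first enzyme of the plastid route to isoprenoids, had 6.81, 6.94 and 6.52 in sufficient arrays against 8.32, 8.87 and 9.43 in deficient arrays (-2.12 ± 0.29, adjusted p = 0.000776). It was the called gene among 10 of diterpenoid phytoalexin synthesis, whose other members were not called. Of 10 chitinases, protease inhibitors and other pathogenesis-related genes 3 rose and 0 fell, where 4.73% of all genes were called. The list median was 0.46. The chitinase gene Cht1 (LOC4338719) had 8.68, 9.07 and 8.13 against 4.52, 5.78 and 7.21 (2.79 ± 0.73, adjusted p = 0.0479), with deficient arrays that ranged over more than 2 log2 units. RBBI3.3 (LOC9271230), a Bowman-Birk protease inhibitor gene, had 10.93, 11.81 and 11.49 against 9.28, 9.61 and 9.86 (1.83 ± 0.47, adjusted p = 0.0454), and the chitinase gene Cht-1 (LOC4342115) rose by 1.02 ± 0.24 (adjusted p = 0.0266). All 3 calls were fragile: that of Cht1 ended without any single array except deficient replicate 3 (2.13 to 3.04), that of RBBI3.3 without any except sufficient replicate 1 (1.63 to 1.97), both also after either rescaling, and that of Cht-1 without sufficient replicate 2 or 3 or deficient replicate 1 (0.77 to 0.97).

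Glutathione transferases conjugate toxins and oxidised compounds to glutathione, and glutaredoxins use glutathione to reduce protein thiols, as thioredoxins also do through their own cysteines. Of 34 genes of these 3 families 2 rose and 3 fell, with a median of -0.12, where 4.73% of all genes were called. GST1 (LOC4334347) had 10.49, 10.09 and 9.84 in sufficient arrays against 12.47, 12.62 and 12.12 in deficient arrays (-2.26 ± 0.36, adjusted p = 0.00237), and GSTZ5 (LOC4332455) fell by 0.99 ± 0.19 log2 units (adjusted p = 0.00914). The glutaredoxins split. GRXS5 (LOC4326324) had 10.36, 10.46 and 10.29 against 8.68, 8.53 and 8.88 (1.67 ± 0.20, adjusted p = 0.000293), and GRXC7 (LOC4338050) had 9.11, 8.59 and 8.28 against 9.57, 9.71 and 10.04 (-1.12 ± 0.21, adjusted p = 0.00675). The thioredoxin gene Trx26 (LOC4346999) rose by 0.51 ± 0.13 (adjusted p = 0.0472), a call that ended without any single array except sufficient replicate 3 (0.43 to 0.58).

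Over the 7 lists of transcription factor families 5 of 98 genes were called, or 5.1%, against the 4.73% of all genes. Of 22 bZIP genes 2 rose and 0 fell, with bZIP41 (LOC4338933) at 8.55, 8.99 and 9.33 in sufficient arrays against 6.32, 6.21 and 6.28 in deficient arrays (2.69 ± 0.46, adjusted p = 0.00404). BZIP52 (LOC4341753) rose by 0.88 ± 0.18 (adjusted p = 0.0114), and its call ended without deficient replicate 2 (0.79). Of 14 MADS-box genes 0 rose and 2 fell. MADS50 (LOC4331445), known in rice as a promoter of flowering, had 6.95, 7.23 and 7.35 against 8.09, 7.89 and 8.04 (-0.83 ± 0.13, adjusted p = 0.00206). MADS18 (LOC4343851) had 7.12, 7.29 and 6.76 against 8.28, 7.89 and 8.68 (-1.22 ± 0.24, adjusted p = 0.00939), and its call ended without deficient replicate 3 (-1.02).

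G1L1 (LOC4328416), of a small family of plant DNA-binding proteins, had 5.64, 5.92 and 5.21 in sufficient arrays against 7.08, 7.28 and 7.68 in deficient arrays (-1.76 ± 0.28, adjusted p = 0.00215), with a sufficient mean below the filter level. Among 35 homeobox genes HOX8 (LOC4348492) fell by 0.66 ± 0.16 log2 units (adjusted p = 0.0356), a call that ended without any single array except sufficient replicate 1 (-0.73 to -0.50). Of 7 clock genes CCA1 (LOC4344703), a morning-phase clock factor, rose by 0.78 ± 0.19 (adjusted p = 0.0329), a call that ended without any single array except deficient replicate 2 (0.68 to 0.83) and after quantile normalization (0.74). The labels give no time of day of sampling. Of the 6 WRKY, 7 NAC, 9 MYB and 5 DREB genes tested, none was called.

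In the heat shock list of 40 genes 3 rose and 4 fell, with a median of -0.19, where 4.73% of all genes were called. The small heat shock protein gene HSP23.2 (LOC4335956) had 7.81, 7.60 and 7.54 in sufficient arrays against 6.06, 5.55 and 5.29 in deficient arrays (2.02 ± 0.40, adjusted p = 0.011). Its call ended without deficient replicate 3 (1.84), and its deficient mean of 5.63 lies below the filter level. HSFC2A (LOC4328809), a heat shock factor gene, had 7.21, 6.52 and 6.30 against 7.93, 7.77 and 7.89 (-1.18 ± 0.21, adjusted p = 0.00466). HSFA2C (LOC4348646) rose by 1.32 ± 0.33 (adjusted p = 0.0358), though its other probe set was at 0.00, and the call ended without any single array except sufficient replicate 3 (1.19 to 1.39). HSP18.8 (LOC4343386) was the remaining gene called higher (0.70 ± 0.18), and HSFA6B (LOC4326351, -0.89 ± 0.19), HSFB1 (LOC4347259, -0.80 ± 0.20) and HSFC1A (LOC4326685, -0.40 ± 0.10) were the others called lower. Their calls ended for HSP18.8 without any single array (0.62 to 0.77), for HSFA6B without sufficient replicate 1 or deficient replicate 3 (-0.75 and -0.71), for HSFB1 without sufficient replicate 2 or 3 or deficient replicate 2 or 3 (-0.82 to -0.64), and for HSFC1A without any single array (-0.42 to -0.37) and after either rescaling. HSFC1A lies outside the rule for named genes and was chosen after its values were seen.

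CASP-like proteins are relatives of the membrane proteins that place the Casparian strip of the root endodermis. Of 21 CASP and CASP-like genes 1 rose and 2 fell, where 4.73% of all genes were called. CASPL1E1 (LOC4325816) had 7.52, 7.43 and 6.86 in sufficient arrays against 8.88, 8.85 and 8.73 in deficient arrays (-1.55 ± 0.26, adjusted p = 0.00327). CASPL1U3 (LOC4351033) rose by 0.91 ± 0.22 (adjusted p = 0.0288) and CASPL4B2 (LOC4332552) fell by 0.69 ± 0.16 log2 units (adjusted p = 0.0283). The CASPL1U3 call ended without sufficient replicate 1 or 2 or deficient replicate 2 or 3 (0.71 to 0.99), and the CASPL4B2 call without sufficient replicate 2 or 3 or deficient replicate 1 or 3 (-0.72 to -0.54).

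Among the remaining large changes, GER1 (LOC4344840), a germin-like protein gene, had 10.97, 11.29 and 10.47 in sufficient arrays against 9.36, 8.79 and 8.90 in deficient arrays (1.89 ± 0.29, adjusted p = 0.00167). XBOS36 (LOC4339988) had 8.63, 8.50 and 8.13 against 10.17, 10.24 and 10.18 (-1.77 ± 0.32, adjusted p = 0.00599). Both genes had separate groups and kept their call in every alternative fit. The protein phosphatase gene PP2C45 (LOC4337276) had 8.19, 7.09 and 5.85 against 4.40, 4.90 and 5.34 (2.17 ± 0.53, adjusted p = 0.0347), but its other probe set had 0.01 and its deficient mean lies below the filter level. The gene listed as pinA (LOC9268662) rose by 1.89 ± 0.43 (adjusted p = 0.0246). The PP2C45 call ended without any single array except sufficient replicate 3 (1.59 to 2.40), and the pinA call without sufficient replicate 2 or 3 or deficient replicate 1 or 2 (1.70 to 1.91).

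**Figure D4:**
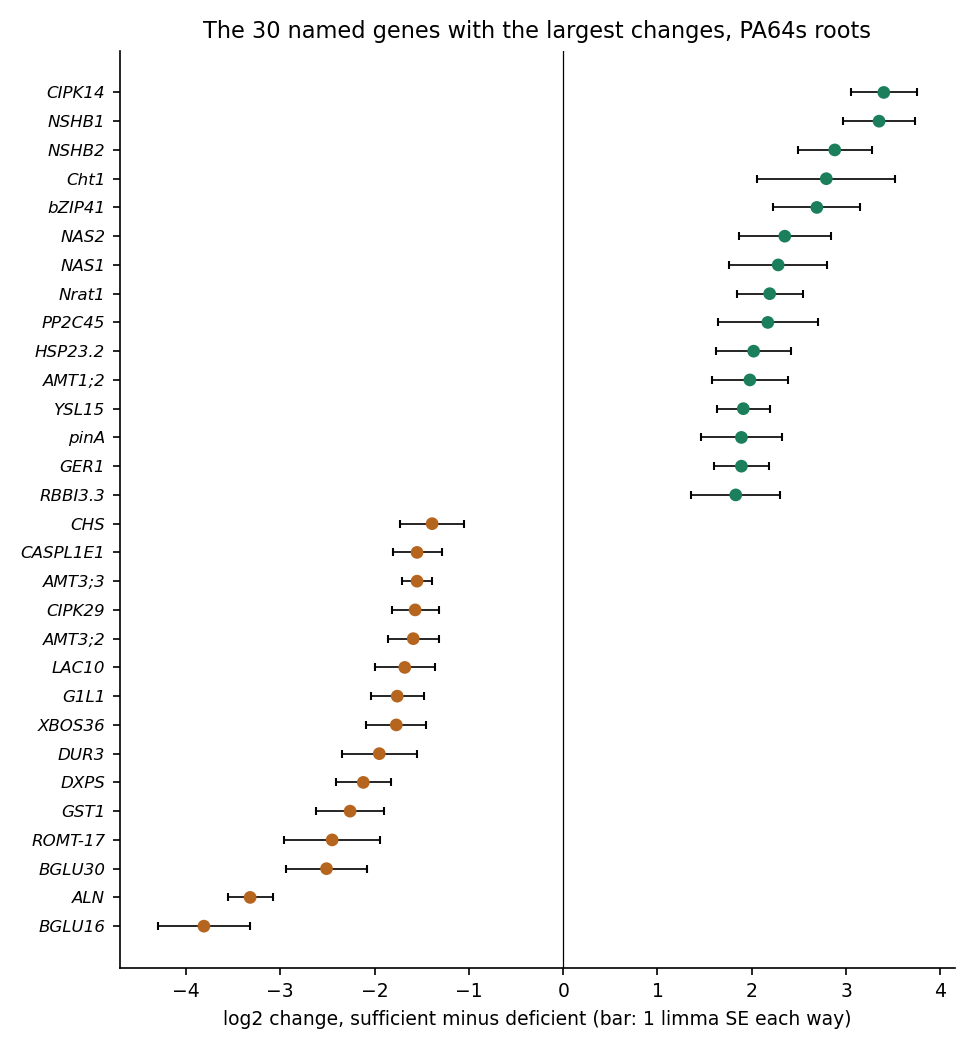
Log2 change in PA64s roots (sufficient minus deficient, horizontal) of the 15 named genes with the largest rises and the 15 with the largest falls, 1 row per gene, with bars of 1 limma SE on each side. Rises run from 1.83 for RBBI3.3 to 3.40 for CIPK14 and falls from -1.39 for CHS to -3.81 for BGLU16.

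Growth and housekeeping groups held few calls, where 4.73% of all genes were called. Of 62 cell cycle and DNA replication genes 1 was called, CycD5;1 (LOC4333455, 0.61 ± 0.15, adjusted p = 0.0311), and of 62 expansin and cell wall genes 1 was called, CSLA5 (LOC4332966, 0.81 ± 0.17, adjusted p = 0.0164). The CycD5;1 call ended without sufficient replicate 2 or 3 or deficient replicate 1 or 3 (0.54 to 0.60), and the CSLA5 call without sufficient replicate 1 or deficient replicate 1 or 2 (0.73 to 0.79). None of the 24 ribosomal protein, 5 histone, 6 photosynthesis or 4 fermentation genes was called. In lists so short the share of all genes would also give few calls or none. In the fermentation list PDC1 (LOC4339066), a pyruvate decarboxylase gene, had 9.49, 8.51 and 7.91 in sufficient arrays against 10.09, 11.94 and 12.35 in deficient arrays, without overlap, and did not pass (-2.82 ± 0.82, adjusted p = 0.0787).

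Further single calls came from other small lists, where 4.73% of all genes were called. Among 17 antioxidant enzymes MDAR5 (LOC4344670), named as a monodehydroascorbate reductase, rose by 0.99 ± 0.20 (adjusted p = 0.013). Among 7 metallothioneins MT2C (LOC4337596) fell by 1.02 ± 0.26 log2 units (adjusted p = 0.0378), and all 4 of its other probe sets were called lower too (-1.17 to -0.90). Among 7 PDR-type transporters ABCG48 (LOC4350807) rose by 0.64 ± 0.17 (adjusted p = 0.0487). The MDAR5 call ended without sufficient replicate 2 or deficient replicate 3 (0.97 and 0.83), that of MT2C without any single array (-1.13 to -0.86), and that of ABCG48 without any single array except sufficient replicate 3 (0.48 to 0.73). MT2C and ABCG48 also lost their calls after either rescaling.

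Taking the 45 lists together, 869 genes were tested, of which 44 were called higher and 33 lower, with a median change of -0.031. The called share was 8.86%, against 3.33% of all probe sets and 4.73% of all genes taken, like these, by their probe set of highest signal. The lists were chosen with earlier results of these data known, so nothing is read from that difference. At least 1 gene was called in 34 lists and none in 11.

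**Figure D5:**
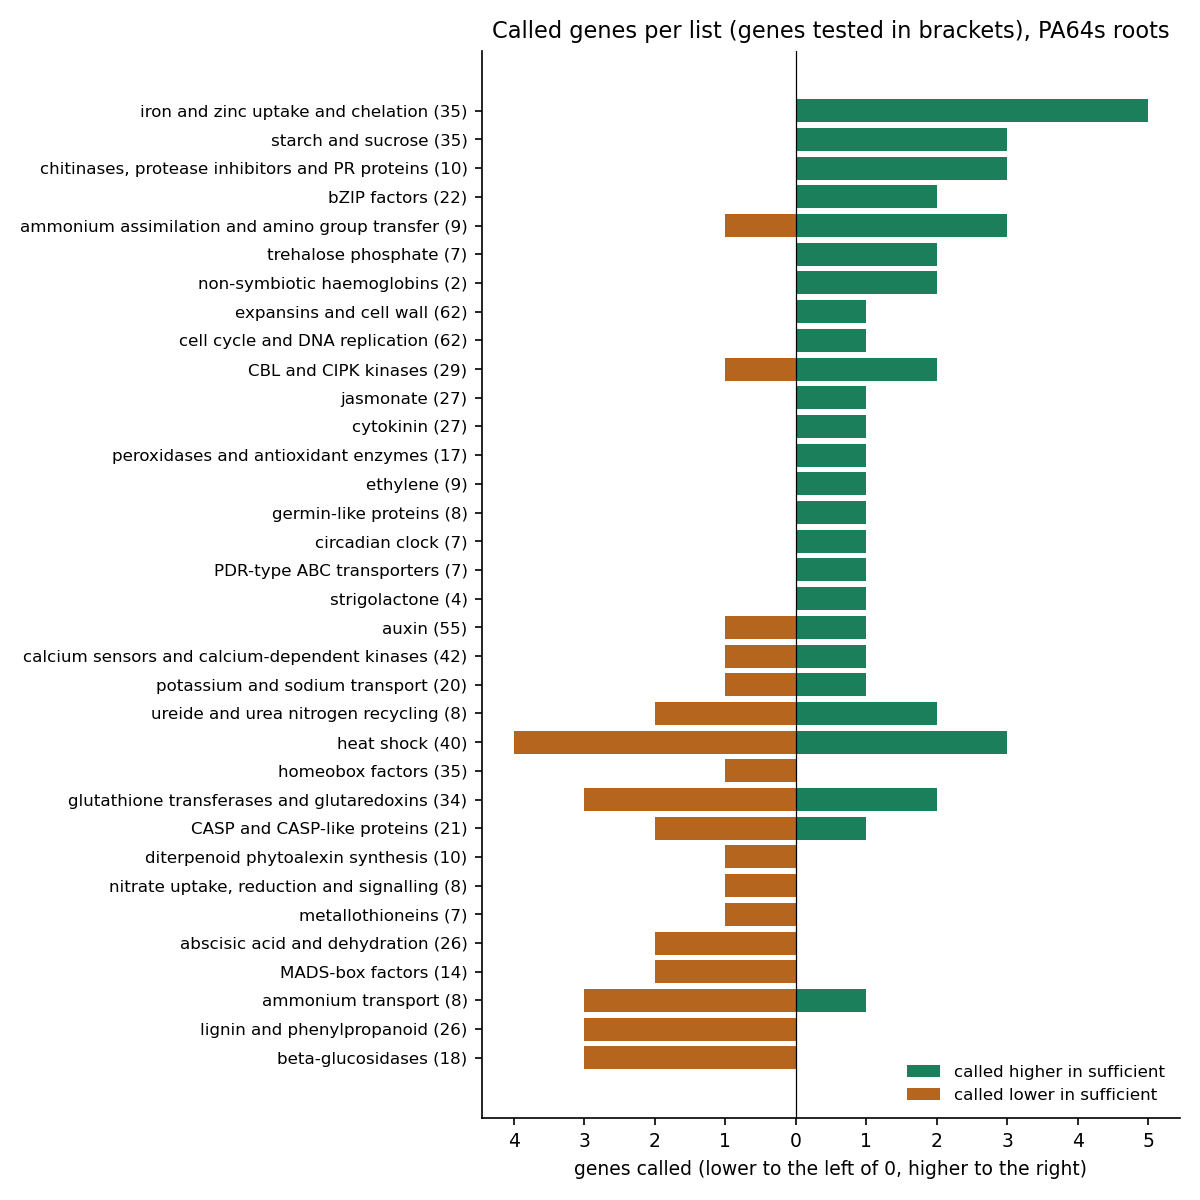
Number of genes called lower (bars to the left of 0) and higher (bars to the right) in PA64s roots for the 34 lists with a called gene, with the number of genes tested in brackets. Iron and zinc genes have 5 called higher and 0 lower, and beta-glucosidase and phenylpropanoid genes 0 higher and 3 lower. Over all genes 4.73% were called.

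The PA64s root response was set against those of the 9311 and LYP9 roots by the difference of the responses in the same fit. The PA64s response differed from that of 9311 for 3 probe sets (0.00874% of those tested). An unadjusted p under 0.05 was found for 4066, against 1716 expected if no response differed. The PA64s response differed from that of LYP9 for 0 (0.0% of those tested), with 819 at an unadjusted p under 0.05, fewer than the 1716 expected. Of the 30 named genes with the largest changes, 0 differed in either comparison (lowest adjusted p = 0.28 against 9311 and 1.0 against LYP9). A difference that misses the threshold after adjustment over all 34316 probe sets does not show equal responses. For several genes the estimated difference was large beside its SE. For BGLU30 the response in PA64s minus that in 9311 was -2.52 ± 0.60 (adjusted p = 0.28), and for BGLU16 -2.33 ± 0.70 (adjusted p = 0.348). For Cht1 it was -4.13 ± 1.04 (adjusted p = 0.285). For ALN it was close to 0, at -0.02 ± 0.33, and likewise for AMT3;3, at 0.00 ± 0.23.

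Of the 3 probe sets that differed, the one with the lowest p has no gene in the annotation. In PA64s roots it had 5.20, 4.63 and 4.30 in sufficient arrays against 8.80, 8.52 and 8.70 in deficient arrays. In 9311 roots it had 4.68, 4.58 and 4.55 in sufficient arrays against 4.62, 4.6 and 4.59 in deficient arrays. Only the deficient PA64s arrays were high among these, and all the others lay below the filter level of 5.703, where the size of a difference is uncertain. The response of this probe set in PA64s minus that in 9311 was -3.96 ± 0.41 (adjusted p = 0.0016). In LYP9 roots its change was -2.48, and the difference between PA64s and LYP9 was not called.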

How the data were processed

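RNA of 36 leaf and root samples was measured on a rice array. The authors deposited linear intensities, as their range with a floor of 1 shows. RMA and affy are listed in the submitters' processing notes without role or version, and scaling and centring are not given in the sources used here. Values were transformed to log2 once. Genes were named through the array annotation and a reference gene table, which holds no descriptions. R 4.3.3 with limma 3.58.1 fitted group means to the 18 root arrays (12 residual and 3.85 prior degrees of freedom, eBayes, 2-sided), tested on simulated data. Fits used the upper 60% of probe sets by mean level. Tables were made with Python 3.11.15 and pandas 2.3.3. Fit alternatives changed the scaling, the filter, a floor, the moderation, the arrays and the replicate block. Depth does not apply to arrays, and 3 arrays per group limit the precision.

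Named are the 15 largest rises and falls among called genes with 1 name and separate groups, all called genes of the nitrogen, phosphate, strigolactone and haemoglobin lists and up to 3 per direction of other lists. A gene is represented by its probe set of highest mean level. Locus numbers with a description were also to be named, but none has one. The members and lists were chosen with earlier results of these data known.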

Additional observations from a re-analysis of the deposited data

Results flagged for a closer look

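The root response of PA64s differed from that of 9311, by the test of the difference itself, for 3 probe sets. For the probe set high in deficient PA64s roots the difference was -3.96 ± 0.41 (adjusted p = 0.0016 with limma), with every 9311 array below the filter level. Another probe set without a gene in the annotation had a difference of 2.1 ± 0.24 (adjusted p = 0.00356 with limma). Its levels were 7.02, 7.26 and 7.24 in PA64s sufficient against 5.40, 5.76 and 5.38 in PA64s deficient roots. In 9311 they were 5.60, 5.22 and 5.33 in sufficient against 5.68, 5.92 and 5.87 in deficient roots. The PA64s deficient mean of 5.51 and the 9311 sufficient mean of 5.38 lie below the filter level. LOC4326140 had a difference of 1.48 ± 0.20 (adjusted p = 0.0245 with limma), with 7.45, 7.12 and 7.68 in PA64s sufficient against 5.90, 5.61 and 5.46 in PA64s deficient roots. In 9311 it had 5.19, 5.34 and 5.16 in sufficient against 4.96, 4.79 and 5.09 in deficient roots, all below the filter level of 5.703. In LYP9 roots the 3 probe sets had changes of -2.48, 0.23 and 1.57 in the order given, and none differed between PA64s and LYP9 at the threshold. The cause was not tested for any of the 3.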

How the results depend on the processing

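The count of 1143 calls stayed within 1.5 times under both rescalings, both filters, the floor and the moderation. It also did so in the fits on the 6 PA64s root arrays or all 36 arrays (853 to 1387 over all these). The calls themselves were kept less well: the 6 PA64s root arrays alone kept 700 of the 1143 (61.2%), and the others 903 to 1143. Leaving out 1 array gave 552 to 1066 calls, 275 to 521 higher and 264 to 606 lower. The count against 9311, 3, was 0 under the stricter filter, 21 with all 36 arrays and 2 to 6 with 1 array left out. The count against LYP9, 0, was 2 with all 36 arrays and 0 to 2 with 1 array left out. The cause was not tested. Over the 82 named probe sets, 323 of 1223 alternative values lost the call and 0 changed sign. The call was lost for 14 without the filter, 9 after each of the rescalings, 6 with the other moderation, 33 with the 6 arrays alone, 37 with the replicate block, 14 with all 36 arrays and 22 to 43 with 1 array left out. The stricter filter tested 75 of them and lost 0 calls, and the floor lost 0 of 82. Same-numbered sufficient and deficient arrays deviated together at 0.314, 0.065 and -0.013, so the numbers were not taken to pair them, and not every array correlated best with its own number. With the replicate block on 6 arrays, 823 probe sets were called, 408 higher and 415 lower, and 596 of the 1143 calls were kept (52.1%). TPP1 (1.33), GRXC7 (-1.12) and MADS50 (-0.83) lost their calls under that block and under no other alternative. With the block on 18 arrays 2 against 9311 and 0 against LYP9.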
